A study of Mus musculus with 2 samples.

Results

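The 40 genes described here are a fixed module of cell cycle genes, 18 that mark DNA replication (S phase) and 22 that mark mitosis, out of 32285 genes in both count matrices. They were chosen by symbol, with earlier results of these data known, and all 40 were found in both matrices. Together they held 0.0582% (S-phase) and 0.0882% (mitotic) of the UMIs (unique molecular identifiers, each standing for 1 captured RNA molecule) of the intact library and 0.138% and 0.272% of those of the callus library.

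The cells were tdTomato+ cells sorted from Clec3b.creERT2; Ai14.R26.tdTomato mice, in which the Clec3b promoter drives a tamoxifen-dependent Cre and a recombined cell and its progeny keep the red reporter. Male littermates received tamoxifen 2 weeks before a stabilized femoral fracture, and tissue was taken 3 weeks after surgery. Bone and muscle of the intact limb gave one 10x Genomics 3′ V3 library and the fracture callus gave the other, each pooled from the same 3 mice. Each condition is therefore 1 library, so no difference between conditions could be tested, and condition, library and cell capture cannot be told apart.

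After removal of barcodes with fewer than 500 genes or more than 10% mitochondrial UMIs, 1207 of 1872 intact barcodes and 3295 of 3987 callus barcodes were kept, with median depths of 4939 and 6843 UMIs. Cell types were rebuilt from marker genes alone, without any cell cycle gene, so each name below stands for "-like" cells, and differences from the names used in the study may come from that. The leading genes, several of which were markers used for the naming, were Col3a1, Dcn, Dpt and Clec3b in fibroblasts, Cdh5 and Kdr in endothelial cells, Slc4a1 in erythroid precursors, Vpreb1, Igll1, Dntt and Rag1 in pro-B or large pre-B cells, Mpo and Elane in granulocyte-monocyte progenitors (GMPs), Ltf, Ngp and Camp in immature neutrophils, and Il1b and Retnlg in mature neutrophils. Most kept barcodes were blood cells in both libraries although the sort was for the reporter. The study set the blood and endothelial cells aside as carry-over of the sort without meaningful reporter RNA, so their values below describe cells of the sorted suspension and not the Clec3b lineage. In all, 23 intact and 93 callus barcodes took no type, and 19 and 144 were mixed barcodes, meaning that they also carried at least 2 UMIs of each of 3 markers of another class of cells. One barcode sequence occurred in both libraries.

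A dividing cell copies its genome once in S phase and divides the copies in mitosis, and each step needs proteins that resting cells hardly make. Replication genes (the Mcm helicase, the clamp Pcna, the nucleotide enzymes Rrm1, Rrm2, Tyms and Tk1) are switched on by E2F factors before S phase, whereas mitotic genes (Cdk1 and its cyclins, the kinesins, the kinetochore proteins) are held off by the DREAM complex in resting cells and switched on in G2 through promoter elements known as CHR and CCAAT boxes. In marrow, erythroid precursors, large pre-B cells and myeloid progenitors are known to divide quickly, while mature neutrophils and most mature B cells have left the cycle, so mature neutrophils serve below as the background.

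The promoters of both kinds of member are shown because they carry the letters by which the lists are known to differ. A window from 250 bases before to 50 bases after the RefSeq transcription start (GRCm38.p6, the same assembly as mm10) was held for 34 of the 40 members, 15 S-phase and 19 mitotic. Mcm4, Gins2, Ccne2, Ccna2, Tpx2 and Aurkb had none. The words searched on both strands were TTTGGCGC, TTTCCCGC, TTTGCCGC and TTTCGCGC for E2F, TTTGAA and TTCGAA for CHR, and CCAAT, and no word lies within another, though matches can overlap. Capitals below mark E2F matches in Mcm5 and Mcm6, CHR matches in Mki67, Top2a and Cdc20, and both in Cdk1, and adjoining or overlapping matches run together. Each stretch is read 5′ to 3′ on the strand of its gene, ends before the first annotated exon, and overlaps no other gene in the GENCODE annotation.
Mcm5, chr8:75109259-75109508, plus strand: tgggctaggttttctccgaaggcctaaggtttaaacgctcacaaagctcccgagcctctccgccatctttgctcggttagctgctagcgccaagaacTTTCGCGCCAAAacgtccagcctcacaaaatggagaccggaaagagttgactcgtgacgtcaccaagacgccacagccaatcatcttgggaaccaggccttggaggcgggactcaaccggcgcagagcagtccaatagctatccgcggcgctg
Mcm6, chr1:128359706-128359955, minus strand: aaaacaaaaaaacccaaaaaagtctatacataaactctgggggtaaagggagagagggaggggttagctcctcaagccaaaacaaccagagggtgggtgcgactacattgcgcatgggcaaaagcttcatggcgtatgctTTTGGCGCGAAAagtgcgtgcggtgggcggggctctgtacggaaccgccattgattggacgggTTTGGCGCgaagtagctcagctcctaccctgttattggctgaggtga
Mki67, chr7:135716380-135716629, minus strand: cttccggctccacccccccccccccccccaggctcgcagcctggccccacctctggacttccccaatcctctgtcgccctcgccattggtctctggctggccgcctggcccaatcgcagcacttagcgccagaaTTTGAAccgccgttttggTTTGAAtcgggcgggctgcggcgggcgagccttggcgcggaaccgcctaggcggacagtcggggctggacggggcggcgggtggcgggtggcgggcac
Top2a, chr11:99024190-99024439, minus strand: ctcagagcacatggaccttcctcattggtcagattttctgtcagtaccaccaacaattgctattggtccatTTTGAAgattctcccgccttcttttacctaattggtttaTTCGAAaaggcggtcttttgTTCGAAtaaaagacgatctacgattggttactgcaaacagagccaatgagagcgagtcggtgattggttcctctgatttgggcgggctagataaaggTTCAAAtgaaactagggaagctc
Cdk1, chr10:69352939-69353162, minus strand: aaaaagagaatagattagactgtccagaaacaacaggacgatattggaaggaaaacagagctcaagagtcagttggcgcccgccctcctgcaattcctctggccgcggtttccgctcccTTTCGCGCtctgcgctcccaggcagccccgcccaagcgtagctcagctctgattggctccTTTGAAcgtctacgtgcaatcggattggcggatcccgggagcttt
Cdc20, chr4:118437353-118437593, minus strand: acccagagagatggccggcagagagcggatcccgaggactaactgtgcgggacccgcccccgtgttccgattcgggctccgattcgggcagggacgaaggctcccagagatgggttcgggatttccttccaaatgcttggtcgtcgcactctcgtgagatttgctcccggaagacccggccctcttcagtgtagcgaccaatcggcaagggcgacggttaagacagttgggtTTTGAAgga

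Among the S-phase members with a window, 6 of 15 (40%) held an E2F word (Mcm3, Mcm5, Mcm6, Mcm7, Cdc6 and Uhrf1), against 1 of 19 mitotic members (5.26%, Cdk1) and 2.60% of all 27025 genes with a window. A CHR word was held by 15 of 19 mitotic members (78.9%), by 2 of 15 S-phase members (13.3%, Mcm2 and Mcm7) and by 21.7% of all genes. All 15 of those mitotic members also held a CCAAT word, a pair that 9.65% of all genes held. The 4 mitotic members without a CHR word were Ccnb1, Birc5, Cenpe and Nusap1. CHR matches of mitotic members began at a median of −18.5 bases from the start, and E2F matches of S-phase members at −110 bases. A match is a run of letters in this window and no evidence of a bound factor.

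Levels are given as CPM, the UMIs of a gene or list per 1000000 UMIs of all cells of a type in a library. UMIs are counted at transcript 3′ ends and need no scaling by length. Brackets hold exact Poisson 95% intervals, or exact Clopper-Pearson 95% intervals for shares of cells, and both cover counting error only, not the spread between mice. For a count of 0 the limit given is 3 counts of the total, which is below the Clopper-Pearson upper bound and limits cells that show these UMIs, not cells that divide.

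Of the callus types, erythroid precursors and pro-B or large pre-B cells carried the highest summed levels of both lists. Endothelial, marrow stromal and bone cells were among those with little of the mitotic list. In the callus, the summed mitotic level was 8861 CPM (8692–9032) in 121 erythroid precursors, 5604 CPM (5512–5697) in 245 pro-B or large pre-B cells, 3649 CPM (3473–3832) in 115 pre-B or immature B cells and 394 CPM (349–444) in 218 mature B cells. The order thus ran down the B lineage from its early to its late stage. In the myeloid cells of the callus it was 2857 CPM (2822–2892) in 275 GMPs, 3168 CPM (3127–3209) in 589 immature neutrophils, 2494 CPM (2443–2545) in 392 monocytes and 377 CPM (330–428) in 156 mature neutrophils.

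The S-phase list also had erythroid and early B-lineage precursors at the top, but placed GMPs higher. Its callus level was 3229 CPM (3127–3333) in erythroid precursors, 2921 CPM (2854–2988) in pro-B or large pre-B cells, 1904 CPM (1875–1932) in GMPs, 1572 CPM (1458–1694) in pre-B or immature B cells and 1175 CPM (1150–1200) in immature neutrophils. By summed level, GMPs stood above immature neutrophils and pre-B or immature B cells on this list and below both on the mitotic one. The mitotic order of GMPs and immature neutrophils held for the summed level only. It turned by the mean of the cells' own CPM, given in the closing section. It also turned by the share of thinned cells described further on (71.1% of GMPs and 40.3% of immature neutrophils). By that share the mitotic order of GMPs and pre-B or immature B cells turned too (22.2% of pre-B or immature B cells). Mature neutrophils were at 149 CPM (120–182). In 33 early haematopoietic progenitors of the callus, 1999 CPM (1878–2126) of S-phase and 2847 CPM (2702–2998) of mitotic UMIs were counted. Both intervals overlap those of callus GMPs.

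Stromal and endothelial cells carried S-phase UMIs but few mitotic ones. In the callus, endothelial cells (100 cells) had 364 CPM (312–422) of S-phase and 77.7 CPM (55.0–107) of mitotic UMIs, and 246 fibroblasts had 232 CPM (214–252) and 299 CPM (278–321). The mitotic level of callus fibroblasts was held by a few barcodes that also carried blood markers, as described further on. In 292 intact fibroblasts the levels were 196 CPM (178–216) and 116 CPM (102.0–132). Osteoblasts of the callus (15 cells) had 64.4 CPM of S-phase and 8.59 CPM of mitotic UMIs.

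**Figure D1:**
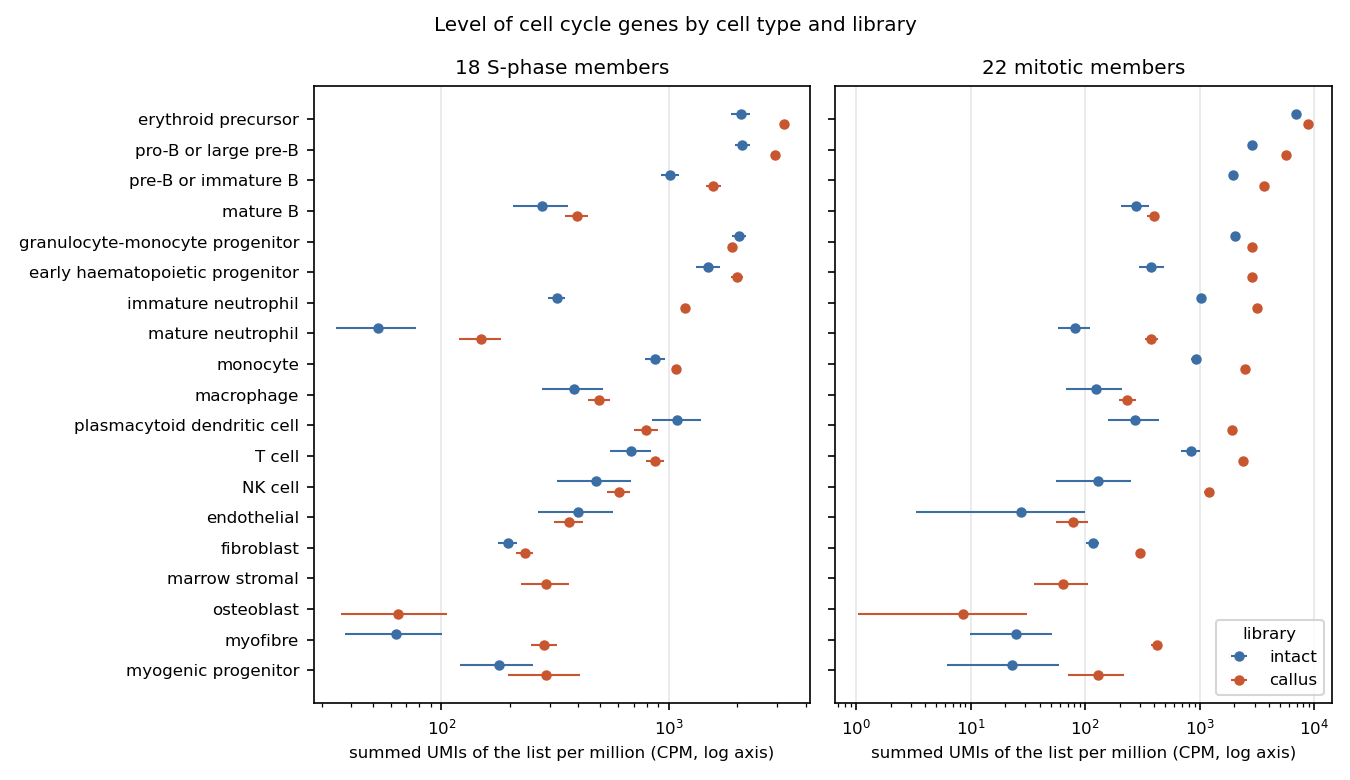
Summed S-phase and mitotic levels (CPM, log axis) by cell type, with intact libraries in blue, callus libraries in orange and bars giving exact Poisson 95% intervals. Erythroid precursors and pro-B or large pre-B cells of the callus stand at 8861 and 5604 CPM of mitotic UMIs, and mature neutrophils at 377 CPM.

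Across the 25 groups of a type and a library with at least 30 cells, each member peaked in one of few groups. Callus erythroid precursors were the highest group for 9 of 18 S-phase and 18 of 22 mitotic members. Callus pro-B or large pre-B cells were highest for 8 S-phase members and for the mitotic members Top2a, Bub1b, Aurkb and Cdc20. Early haematopoietic progenitors of the callus were highest for the 1 remaining S-phase member, Mcm5. These are ranks of single pooled libraries, so neighbours in an order are told apart only by counting error.

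Origin licensing members build and load the helicase that opens DNA before it is copied. Mcm7 had the most UMIs of them over both libraries (4409) and Cdc6, which loads the helicase, the fewest (935). Mcm7 stood at 261 CPM in callus erythroid precursors, 238 CPM in callus pro-B or large pre-B cells, 189 CPM in callus GMPs and 77.1 CPM in callus immature neutrophils, against 6.47 CPM in callus mature neutrophils. Cdc6 was at 135 CPM in callus erythroid precursors and at or below 36.8 CPM in the GMPs, immature neutrophils and monocytes of both libraries. Mcm5, a core helicase subunit, was at 135 CPM in callus pro-B or large pre-B cells and 128 CPM in callus GMPs, and at 1.91 and 3.66 CPM in intact and callus fibroblasts. Mcm5 thus stood far above its fibroblast level in these blood precursors.

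Nucleotide synthesis members make the building blocks of DNA. Rrm2, the cycle-limited subunit of ribonucleotide reductase, had the most UMIs (4623) and Tk1, thymidine kinase, the fewest (1683). Rrm2 reached 418 CPM in callus erythroid precursors and 186 CPM in callus immature neutrophils, above its 128 CPM in callus GMPs. Tk1 was at 149 CPM in callus erythroid precursors, 66.0 CPM in callus GMPs and 51.7 CPM in callus immature neutrophils, and had no UMI in intact pre-B or immature B cells.

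Of the members that clamp, repair and copy chromatin, Pcna, the sliding clamp, had 7515 UMIs and Ung, which removes uracil from DNA, 503. Pcna was at 473 CPM in callus pro-B or large pre-B cells and 432 CPM in callus erythroid precursors, but also at 83.8 CPM in callus endothelial cells and 54.5 CPM in intact fibroblasts. Pcna and Slbp, the histone mRNA binding protein, had the highest medians of the S-phase members over the 25 groups, 134 and 66.9 CPM, and with Mcm7 they were the S-phase members at 0 in no group. Ung had a pattern of its own: 33.5 CPM in callus pro-B or large pre-B cells and 29.2 CPM (263 UMIs) in callus GMPs, but 6.75 CPM (8 UMIs) in callus erythroid precursors and 0.947 CPM (7 UMIs) in callus immature neutrophils. Of the other S-phase members, Pcna, Rrm2 and Mcm7 stood at 156, 186 and 77.1 CPM in those same immature neutrophils. The cyclin E genes, which start S phase through Cdk2, were low, with Ccne2 at 1045 and Ccne1 at 594 UMIs in all. Ccne1 reached 119 CPM in callus erythroid precursors and no more than 30.7 CPM in the B-lineage, myeloid, T, endothelial and fibroblast groups.

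Mki67, the coat protein of mitotic chromosomes, and Top2a, which untangles DNA before it is parted, had the most UMIs of all members, 15018 and 13364. Mki67 was at 2127 CPM (2045–2212) in callus erythroid precursors, 834 CPM in callus pro-B or large pre-B cells, 480 CPM in callus immature neutrophils and 323 CPM in callus GMPs. In callus mature neutrophils it was at 45.3 CPM, in callus fibroblasts at 39.4 CPM and in callus endothelial cells at 10.2 CPM. Top2a was spread more evenly over the precursors, at 871 CPM (835–908) in callus pro-B or large pre-B cells, 770 CPM in callus erythroid precursors and 419 CPM in callus immature neutrophils. Callus erythroid precursors thus stood above callus pro-B or large pre-B cells for Mki67 and below them for Top2a.

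Of the cyclins and kinase that drive entry into mitosis, Cdk1 had 3594 UMIs and Ccnb1, cyclin B1, 1865. Cdk1 was at 231 CPM in callus erythroid precursors, 172 CPM in callus pro-B or large pre-B cells, 134 CPM in callus GMPs and 120 CPM in callus immature neutrophils, and at 5.69 CPM in callus fibroblasts. Ccnb1 was at 153 CPM in callus erythroid precursors and 146 CPM in callus pro-B or large pre-B cells. Among the mitotic kinases, Aurkb, which corrects spindle attachments, had 2205 UMIs and Bub1, of the spindle checkpoint, 1015. Aurkb was at 103 CPM in callus pro-B or large pre-B cells, 87.3 CPM in callus GMPs and 75.9 CPM in callus erythroid precursors, a narrow range. Bub1 did not exceed 64.1 CPM in these groups.

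Of the centromere members, Birc5, survivin, had 7970 UMIs and Cenpe, a kinetochore motor, 3177. Birc5 was at 672 CPM in callus erythroid precursors and 691 CPM in the 14 intact ones. It was at 390 CPM in callus pro-B or large pre-B cells and 262 CPM in callus immature neutrophils. Cenpe followed Birc5 at lower levels, 227 CPM in callus erythroid precursors and 103 CPM in callus immature neutrophils. Cenpa, the histone of the centromere, was the exception of the mitotic list, since it stood at 159 CPM in intact and 170 CPM in callus mature B cells, where Birc5 was at 5.31 and 8.72 CPM.

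Of the spindle members, Nusap1, which bundles microtubules, had 5077 UMIs and Kif23, a motor of the dividing cell's midzone, 2354. Nusap1 was at 490 CPM in callus erythroid precursors and 246 CPM in callus pro-B or large pre-B cells, and at 0 and 11.3 CPM in intact and callus mature neutrophils. Kif23 did not follow, with 36.6 CPM in intact and 58.2 CPM in callus mature neutrophils beside 21.4 and 82.8 CPM in intact and callus immature neutrophils. Of the members that mark proteins for removal as mitosis ends, Ube2c had 9130 UMIs and Cdc20, the activator of the same ubiquitin ligase, 1647. Ube2c was at 1236 CPM in intact and 984 CPM in callus erythroid precursors against 500 CPM in callus pro-B or large pre-B cells, while Cdc20 was at 68.1, 85.2 and 96.8 CPM in the same groups. Per UMI of Mki67 there were 1.51 UMIs of Ube2c in intact and 0.463 in callus erythroid precursors.

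**Figure D2:**
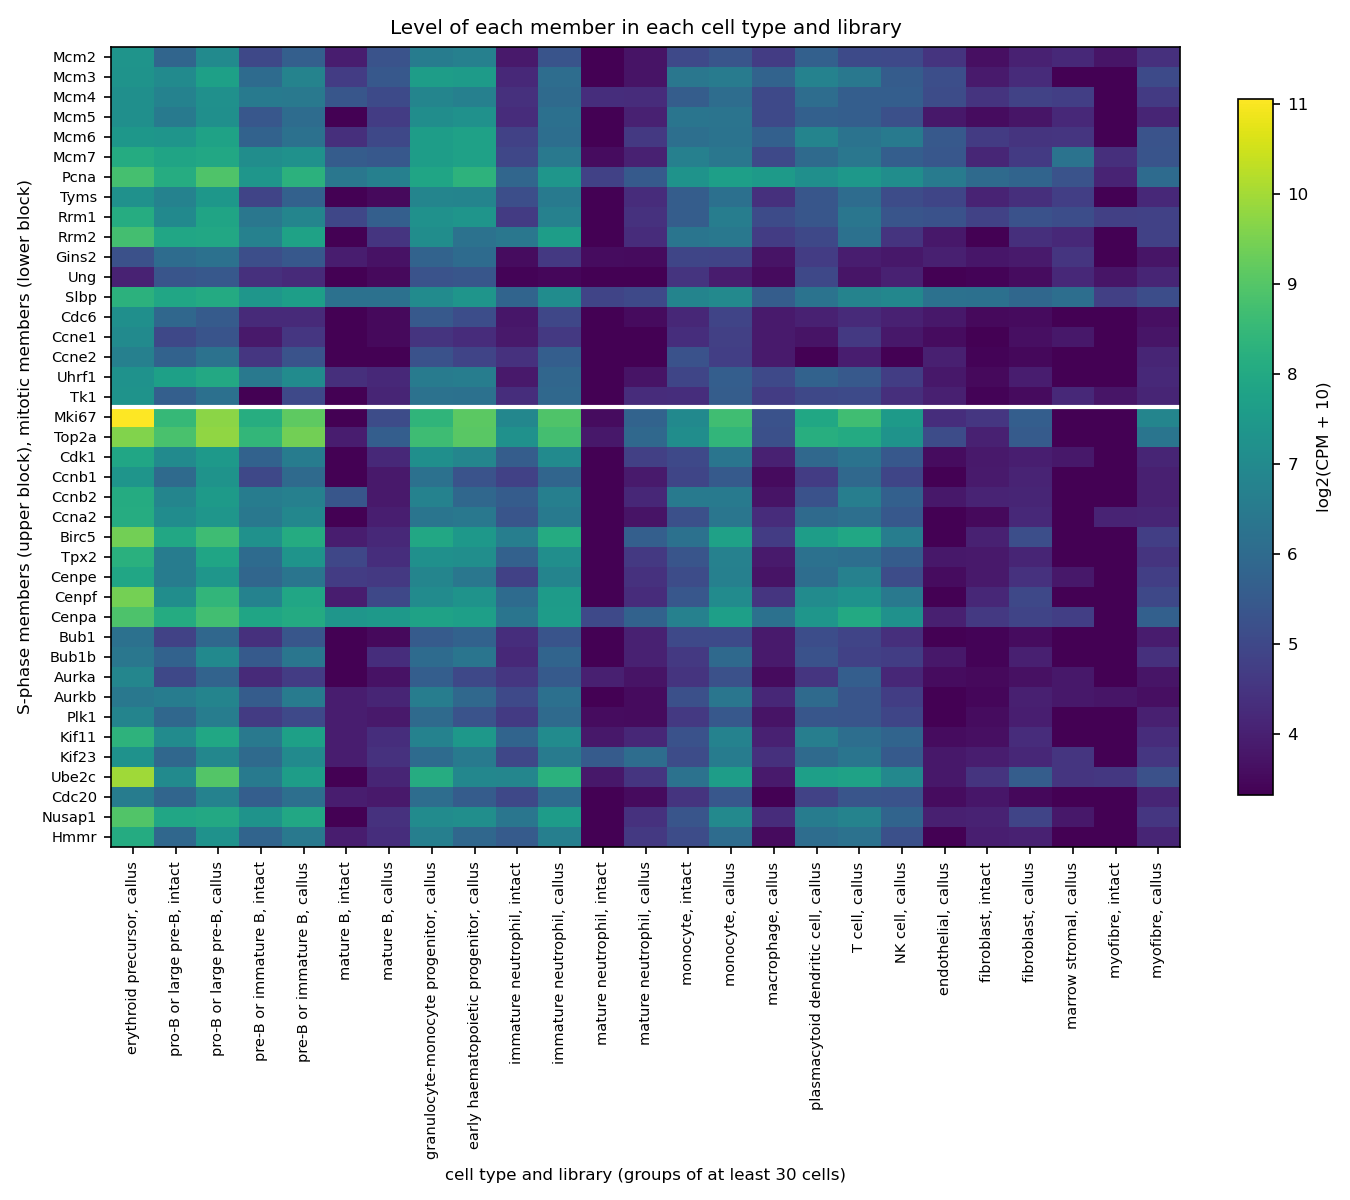
Levels of the 40 members (rows) in cell types and libraries (columns) as log2(CPM + 10), from dark (0 CPM) to yellow. Most members are highest in erythroid, B-lineage and myeloid precursors, while Cenpa in mature B cells (159 and 170 CPM) and Kif23 in mature neutrophils (36.6 and 58.2 CPM) stand out from their lists.

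Which members made up a list's UMIs differed between cycling and quiet types. In mature neutrophils of the intact library, Slbp and Pcna held 73.1% of the 26 S-phase UMIs, and Kif23 held 18 (45%) and Cenpa 11 (27.5%) of the 40 mitotic UMIs. Intact macrophages had 43 S-phase UMIs, of which Pcna and Slbp held 83.7%. In intact mature B cells Cenpa alone held 30 of 52 mitotic UMIs (57.7%), and in callus mature B cells 117 of 271 (43.2%). Mki67 and Top2a led the mitotic list in B-lineage precursors, immature neutrophils and monocytes of both libraries and held, for example, 30.4% of it in callus pro-B or large pre-B cells and 28.4% in callus immature neutrophils. In the 14 intact erythroid precursors Ube2c led with 254 of 1404 mitotic UMIs (18.1%). Callus mature neutrophils were not so uneven, since all 22 mitotic members were seen there and Kif23 and Top2a, the leading pair, held 29.2% of 233 mitotic UMIs.

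The UMIs of both lists were concentrated in few types. Of the mitotic UMIs in the callus library, 27.6% were in GMPs, 25.1% in immature neutrophils, 15.1% in pro-B or large pre-B cells, 11.3% in erythroid precursors and 9.94% in monocytes. Erythroid precursors were 3.67% of the kept cells. Fibroblasts were 7.47% of the cells and held 0.789% of the mitotic UMIs. GMPs held 36.4% of the S-phase UMIs and were the deepest of these types, at a median of 32218 UMIs per cell.

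Deeper cells show more members, so shares of cells were taken after each cell was thinned to 2000 UMIs, with shallower cells left out, and a cell counted when it carried UMIs of at least 2 mitotic members. The background was the mature neutrophils, where 1 of 123 thinned intact cells (0.813%, 0.0206–4.45) and 5 of 136 thinned callus cells (3.68%, 1.20–8.37) counted, at median depths of 3574 and 3242 UMIs before thinning and with 10 and 20 shallower cells left out. Unthinned, these shares were 1.5% and 6.41%. The callus erythroid precursors counted most often, 94 of 114 cells (82.5%, 74.2–88.9), against 98.3% unthinned at a median depth of 8843 UMIs, with 7 shallower cells left out. Their share and rank depended on the cell filter, as given in the closing section. In callus GMPs 194 of 273 cells counted (71.1%, 65.3–76.4), against 98.9% unthinned, with 2 left out. Their summed mitotic CPM was below that of pro-B or large pre-B cells, of pre-B or immature B cells and of immature neutrophils. No order of GMPs against these types was therefore read from the shares.

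In the B lineage, 110 of 233 callus pro-B or large pre-B cells counted (47.2%, 40.7–53.8, 12 left out), 24 of 108 pre-B or immature B cells (22.2%, 14.8–31.2, 7 left out) and 9 of 206 mature B cells (4.37%, 2.02–8.13, 12 left out). Unthinned shares were 56.7%, 27.8% and 9.63% at median depths of 5712, 3086 and 2880 UMIs. In callus the share was thus lower at each later stage, and the interval of mature B cells overlapped that of the mature neutrophils. In intact tissue 7 of 62 pro-B or large pre-B cells (11.3%, 4.66–21.9) and 12 of 132 pre-B or immature B cells (9.09%, 4.79–15.3) counted, with overlapping intervals. The early stage was taken at 2 early marker UMIs, whatever the depth of the cell. Among callus myeloid cells, 234 of 581 immature neutrophils (40.3%, 36.3–44.4, 8 left out) and 98 of 389 monocytes (25.2%, 21.0–29.8, 3 left out) counted, against 48.4% and 38.3% unthinned at 9802 and 7982 UMIs. Callus T cells counted in 12 of 87 cases (13.8%, 7.33–22.9, 1 left out), against 21.6% unthinned at 5470 UMIs.

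S-phase and mitotic members coincided differently by type. Counting cells with at least 2 S-phase members in the same way, 55 of 114 callus erythroid precursors carried both lists, 39 (34.2%, 25.6–43.7) the mitotic list alone and 1 (0.877%, 0.0222–4.79) the S-phase list alone. In callus immature neutrophils the split was 145 with both, 89 (15.3%, 12.5–18.5) mitotic alone and 17 (2.93%, 1.71–4.64) S-phase alone, of 581. In thinned callus GMPs the balance was the other way, with 153 of 273 carrying both, 62 (22.7%, 17.9–28.2) the S-phase list alone and 41 (15.0%, 11–19.8) the mitotic list alone. Callus pro-B or large pre-B cells also leaned to S phase, with 95 of 233 carrying both, 29 (12.4%, 8.50–17.4) S-phase alone and 15 (6.44%, 3.65–10.4) mitotic alone. None of the 123 intact and 136 callus thinned mature neutrophils carried both, for which the limits are 2.44% and 2.21% (Clopper-Pearson upper bounds 2.96% and 2.68%). Before thinning, 1 of 133 intact and 4 of 156 callus mature neutrophils carried both. Unthinned, the both, S-phase alone and mitotic alone counts were 74, 0 and 45 of 121 erythroid precursors, 228, 18 and 57 of 589 immature neutrophils, 271, 2 and 1 of 275 GMPs and 129, 23 and 10 of 245 pro-B or large pre-B cells. The split in GMPs was therefore seen only after thinning, at a small part of their depth.

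**Figure D3:**
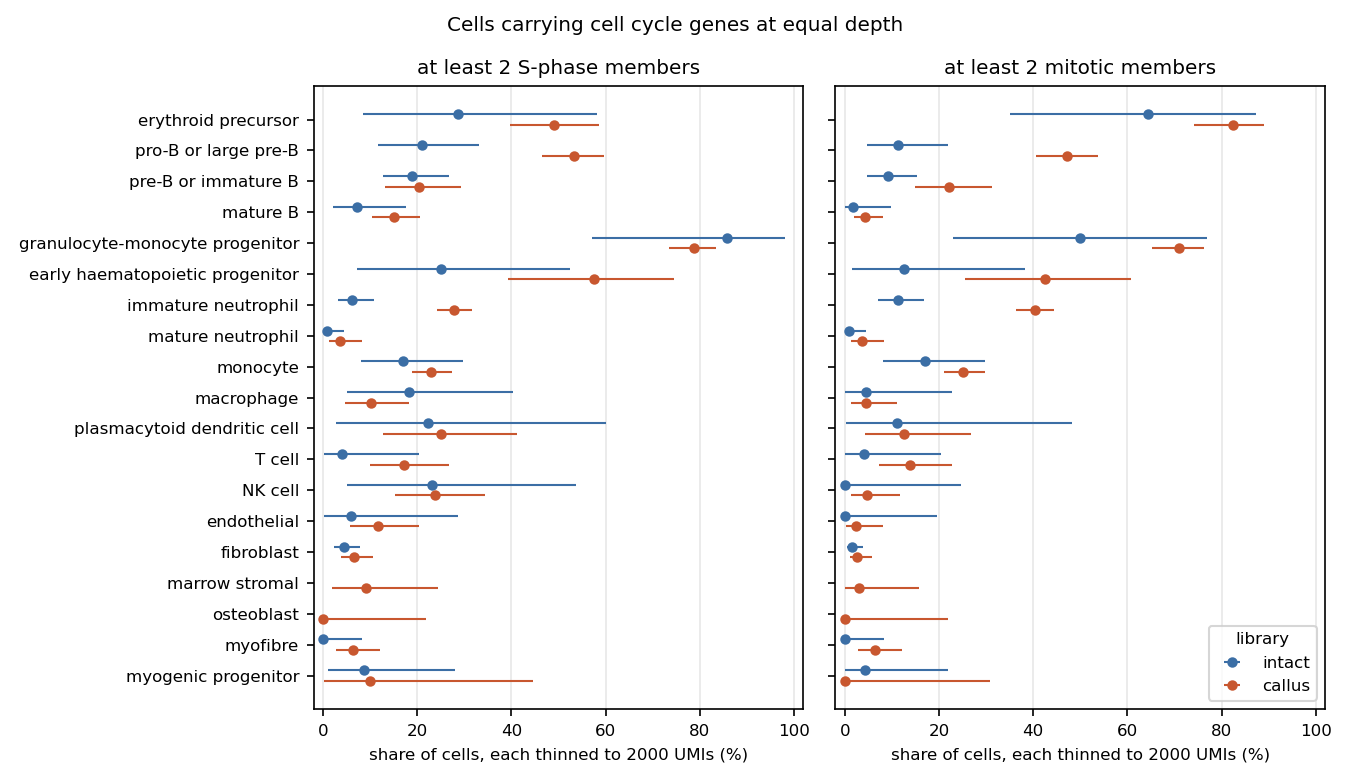
Percent of cells thinned to 2000 UMIs that carried at least 2 mitotic or at least 2 S-phase members, by cell type, in blue for intact and orange for callus, with exact Clopper-Pearson 95% intervals as bars. Callus erythroid precursors reach 82.5% for the mitotic list and mature neutrophils 0.813% and 3.68%.

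Cells that counted were also deeper before thinning in most types. In callus immature neutrophils the 234 cells with at least 2 mitotic members had a median of 17998 UMIs and the other 347 a median of 7569, and in callus pro-B or large pre-B cells the medians were 13430 and 3537. The ratio of the medians was 2.38 and 3.80, whereas it was 1.13 in callus GMPs and 0.942 in callus erythroid precursors. A summed CPM weights the deep cells, and the mean of the cells' own CPM was lower, 3745 CPM of mitotic UMIs for callus and 881 CPM for intact pro-B or large pre-B cells.

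The pair of libraries was made to set Clec3b-lineage cells of a fracture callus against those of intact tissue, and most cells that carried the members were the blood cells of the suspension. Over all kept cells of at least 2000 UMIs, 79 of 1096 intact cells (7.21%) and 848 of 3019 callus cells (28.1%) carried at least 2 mitotic members. The intact holders were 20 immature neutrophils, 12 pre-B or immature B cells, 9 erythroid precursors, 9 monocytes, 7 GMPs, 7 pro-B or large pre-B cells and fewer of each other type, and the callus holders were led by 234 immature neutrophils, 194 GMPs, 110 pro-B or large pre-B cells, 98 monocytes and 94 erythroid precursors. The make-up of a sorted suspension depends on how tissue was taken and digested.

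In immature neutrophils all members measured were higher in the callus library. Their S-phase level was 321 CPM (293–350) in intact tissue and 1175 CPM (1150–1200) in callus, and the mitotic level 1029 CPM (979–1081) and 3168 CPM. Of members with at least 20 UMIs over both groups, 17 of 17 S-phase and 22 of 22 mitotic members were at least 2-fold higher in callus, beside 27.4% of all genes measured in that comparison. The log2 ratios ran from 1.35 (Rrm2) to 3.42 (Uhrf1, which copies DNA methylation) for S-phase members, with Mcm3 at 2.80 and Mcm5 at 2.70, and from 1.30 (Ccnb2) to 2.51 (Cenpe) for mitotic members, with Mki67 at 2.13. The median log2 ratio was 2.28 for S-phase members, 1.52 for mitotic members and 0.50 for all genes measured. Thinned, 20 of 178 intact immature neutrophils (11.2%, 7–16.8, unthinned 15.7% at 7500 UMIs) carried at least 2 mitotic members, an interval well below that of the callus. Ung, with 1 intact and 7 callus UMIs, was not measured. Without the 3 intact cells with most mitotic UMIs the intact mitotic level was 748 CPM.

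Callus immature neutrophils that kept markers of GMPs (at least 10 marker UMIs per 10000) had more of both lists. These 53 cells had 2115 CPM of S-phase and 3932 CPM of mitotic UMIs, and the other 536 had 977 and 3007 CPM. The same held for monocytes, where 33 such cells had 2471 and 5455 CPM and the other 359 had 806 and 1920 CPM. Among cells low in these markers, 177 intact immature neutrophils had 295 CPM (268–324) of S-phase and 979 CPM (930–1030) of mitotic UMIs, both below callus. In 52 such intact monocytes the levels were 715 CPM (640–796) and 927 CPM (841–1019). Their mitotic level was below that of the callus, while the S-phase interval overlapped the callus one (775–839). Thinned, 7 of 51 intact (13.7%, 5.70–26.3) and 67 of 356 callus monocytes low in these markers (18.8%, 14.9–23.3) carried at least 2 mitotic members, with overlapping intervals. The difference in mitotic CPM between the libraries was thus as large in immature neutrophils low in these markers and smaller in such monocytes than over all their cells.

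Monocytes separated the lists. Their S-phase level was 871 CPM (790–958) intact and 1077 CPM (1044–1111) callus, and their mitotic level 921 CPM (837–1010) and 2494 CPM. At least 2-fold higher in callus were 3 of 18 S-phase and 19 of 22 mitotic members, beside 10.7% of all genes measured, and 1 S-phase member (Ung, −1.27 on the log2 scale) was at least 2-fold lower, beside 2.61% of all genes. Among S-phase members, Tk1 had the highest log2 ratio, 1.90, and Mcm7 stood at −0.37. Among mitotic members Cenpe was at 1.93 and Ccnb2, cyclin B2, at 0.01. The thinned shares were 9 of 53 intact (17.0%, 8.07–29.8) and 98 of 389 callus cells, with overlapping intervals, and without the 3 intact cells with most mitotic UMIs the intact level was 333 CPM.

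Pro-B or large pre-B cells had S-phase levels of 2108 CPM (1951–2274) intact and 2921 CPM callus and mitotic levels of 2850 CPM (2667–3042) and 5604 CPM. At least 2-fold higher in callus were 1 of 18 S-phase members (Mcm2, log2 1.33) and 11 of 22 mitotic members, beside 12.1% of all genes measured. Mitotic log2 ratios ran from 0.09 (Nusap1) to 2.06 (Ube2c), and the lowest S-phase value was −0.48 (Cdc6). The intact level rested on few cells, since it was 1135 CPM without the 3 with most mitotic UMIs, and by the mean of the cells' CPM 14 S-phase and all 22 mitotic members were at least 2-fold higher in callus. The share of all genes past 2-fold by that mean was not counted, so these counts cannot be told from a shift of all genes. Thinned, 7 of 62 intact cells counted (11.3%, 4.66–21.9, unthinned 14.5% at 2909 UMIs, 7 left out), below the 47.2% of the callus. In pre-B or immature B cells, 2 of 13 S-phase and 9 of 19 mitotic members measured were at least 2-fold higher, beside 3.62% of all genes, with mitotic levels of 1959 CPM (1832–2092) intact and 3649 CPM callus. Callus pro-B or large pre-B cells in which Dntt, an enzyme of early B cells, was seen (140 cells) had 2857 CPM (2774–2943) of S-phase and 6086 CPM (5963–6211) of mitotic UMIs, and the other 105 had 3020 CPM (2912–3132) and 4845 CPM (4707–4985). The summed mitotic level of the callus was thus higher where Dntt was seen, while the S-phase intervals overlapped. Cells with Dntt seen were deeper, at a median of 7254 against 3501 UMIs. Thinned, their mitotic shares overlapped, 68 of 134 (50.75%, 42.0–59.5) against 42 of 99 (42.4%, 32.55–52.8). In intact tissue the mitotic order was the other way, 2700 CPM (2370–3063) where Dntt was seen and 2909 CPM (2691–3139) elsewhere, with overlapping intervals.

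Mature neutrophils carried few members, with 2 S-phase and 5 mitotic members measured, of which 0 and 3 were at least 2-fold higher in callus, beside 17.5% of all genes measured. Both summed levels were higher in callus here too, 52.8 CPM (34.5–77.4) against 149 CPM of S-phase and 81.2 CPM (58.0–111) against 377 CPM of mitotic UMIs. The background itself therefore differed between the libraries by summed level, in the same direction as the cycling types. Its part in their differences was not tested. The thinned mitotic shares of mature neutrophils, 0.813% (0.0206–4.45) intact and 3.68% (1.20–8.37) callus, had overlapping intervals. At least 5 mitotic UMIs were held by 0 of 133 intact and 3 of 156 callus mature neutrophils, 1 of the 3 a mixed barcode.

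**Figure D4:**
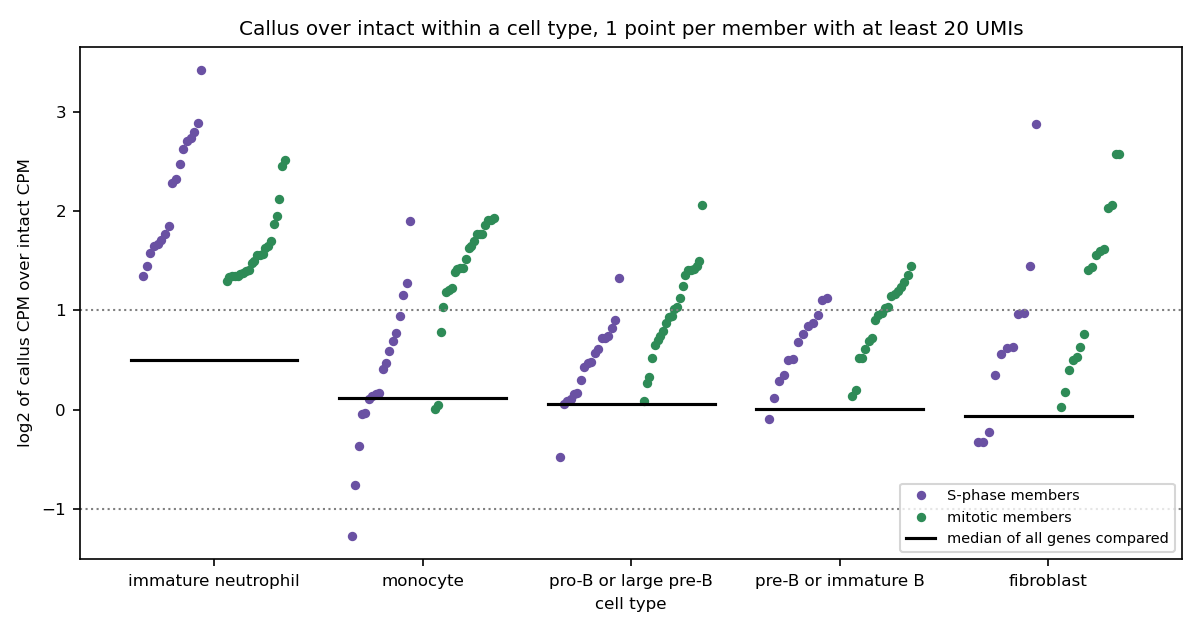
Log2 ratio of callus over intact CPM for each measured member, by cell type, with S-phase members in purple, mitotic members in green, a black line at the median of all genes measured and dotted lines at a 2-fold difference. All measured members of immature neutrophils lie above 1, while S-phase members of monocytes and pro-B or large pre-B cells lie mostly below 1. Rrm2 of fibroblasts, with 0 intact UMIs, is drawn against 3 UMIs.

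Within lineages, members were set against the next stage of the same library, which compares cells of one pool. Immature over mature neutrophils gave at least 2-fold higher values for 17 of 17 S-phase and 21 of 22 mitotic members in callus, beside 19.2% of all genes measured, and for 7 of 8 and 19 of 20 in intact tissue, beside 16% of all genes. Kif23 was the mitotic exception in both, at log2 0.51 and −0.78. Pre-B or immature B over mature B cells in callus gave 11 of 12 S-phase and 18 of 19 mitotic members, beside 13.6% of all genes, with Cenpa (0.59) as the mitotic exception. Both transitions thus covered nearly all members measured.

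Earlier transitions gave fewer members. Callus GMPs over immature neutrophils gave 7 of 18 S-phase members at least 2-fold higher and 0 of 22 mitotic members, beside 42.3% of all genes measured, so the S-phase share was near that of all genes. The mitotic log2 ratios ran only from −0.59 to 0.47 where the median of all genes was 0.76. The 7 S-phase members were Ung at 4.95 (29.2 against 0.947 CPM), Mcm3 at 1.69, Mcm6 at 1.66, Gins2 at 1.65, Mcm2 at 1.49, Mcm7 at 1.30 and Mcm5 at 1.02. Rrm2 went the other way, at −0.54. Pro-B or large pre-B over pre-B or immature B cells gave 11 of 18 S-phase and 6 of 22 mitotic members in callus, beside 14.6% of all genes, and 10 of 15 and 4 of 20 in intact tissue, beside 5.21%. The callus counts were 6 and 1 when early B cells were taken at 5 or more early marker UMIs per 10000, and 2 and 2 when stages were taken from clusters made without cell cycle genes. The share of all genes was not counted under these settings.

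Fibroblasts, the type that expresses Clec3b itself, carried few members in either library. In callus over intact fibroblasts 2 of 11 S-phase and 9 of 16 mitotic members measured were at least 2-fold higher, beside 6.92% of all genes. All 7 callus fibroblasts with 5 or more mitotic UMIs were mixed barcodes with B-lineage, erythroid or granulocyte-monocyte markers, while 11 of the other 239 (4.60%) were mixed. Both cuts are fixed numbers of UMIs whatever the depth, so deeper barcodes pass both more easily. These 7 barcodes held from 6927 to 30885 UMIs, against a median of 8110 UMIs over all callus fibroblasts. One of them held 251 mitotic UMIs beside 67 UMIs of granulocyte-monocyte markers, and another 131 mitotic UMIs beside 1739 of erythroid markers. Without mixed barcodes the callus fibroblasts had 41 mitotic UMIs, 19.5 CPM (14.0–26.4). No member of either list that could be measured was then at least 2-fold higher in callus. Few mitotic members could be measured in this setting, and the share of all genes past 2-fold was not counted. Most of the remaining intact mitotic UMIs also lay in a single barcode, described below, so no conclusion on the mitotic members was drawn from this absence.

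Intact fibroblasts without mixed barcodes had 126 mitotic UMIs, 62.3 CPM (51.9–74.2), so the order of the libraries turned. Of these, 89 lay in a single barcode of 12807 UMIs with 327 fibroblast marker UMIs, 0 B-lineage and 0 granulocyte-monocyte marker UMIs, and without it the level was 18.4 CPM (12.96–25.4), close to the callus value with overlapping intervals. Thinned and without mixed barcodes, 0 of 208 callus fibroblasts carried at least 2 mitotic members, a count that permits up to 1.44%, and 3 of 259 intact fibroblasts did. With mixed barcodes the shares were 6 of 226 (2.65%, 0.980–5.69) and 4 of 265 (1.51%). None of these thinned shares exceeded the upper bound of the mature neutrophil background of its library. Unthinned and without mixed barcodes, 6 of 228 callus (2.63%) and 4 of 286 intact fibroblasts (1.40%) carried at least 2 mitotic members, at median depths of 7850 and 7403 UMIs. With mixed barcodes these were 14 of 246 (5.69%) and 5 of 292 (1.71%). The S-phase level of callus fibroblasts was 179 CPM (161–198) without mixed barcodes in place of 232 CPM, and that of intact fibroblasts 197 CPM (178–218) in place of 196 CPM, so its order between the libraries turned too, with overlapping intervals. In intact fibroblasts Slbp (132) and Pcna (114) held 60% of the 410 S-phase UMIs.

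In the other non-blood types of the callus, cells with 5 or more mitotic UMIs were mixed barcodes too. These were 7 myofibres, 1 endothelial cell and 1 myogenic progenitor. Not all of them carried many blood marker UMIs. The myogenic progenitor had 12 mitotic UMIs beside 1 erythroid, 1 granulocyte-monocyte, 0 B-lineage and 0 T or NK marker UMIs. In 1 myofibre, 6 mitotic UMIs stood beside 11, 2, 0 and 1 of these. Which other class marked these barcodes as mixed was not resolved. Without mixed barcodes the callus mitotic level of myofibres was 48.7 CPM in place of 419 CPM, and that of endothelial cells 57.4 in place of 77.7 CPM. Blood precursors were hardly touched: the callus level without mixed barcodes was 5661 CPM in pro-B or large pre-B cells, 2873 CPM in GMPs, 3142 CPM in immature neutrophils and 8941 CPM in erythroid precursors, and 1 of 120 pro-B or large pre-B cells with 5 or more mitotic UMIs was mixed. In 17 thinned intact endothelial cells and 15 callus osteoblasts none counted, with limits of 17.6% and 20%, and unthinned 1 of the 15 osteoblasts (6.67%) did.

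**Figure D5:**
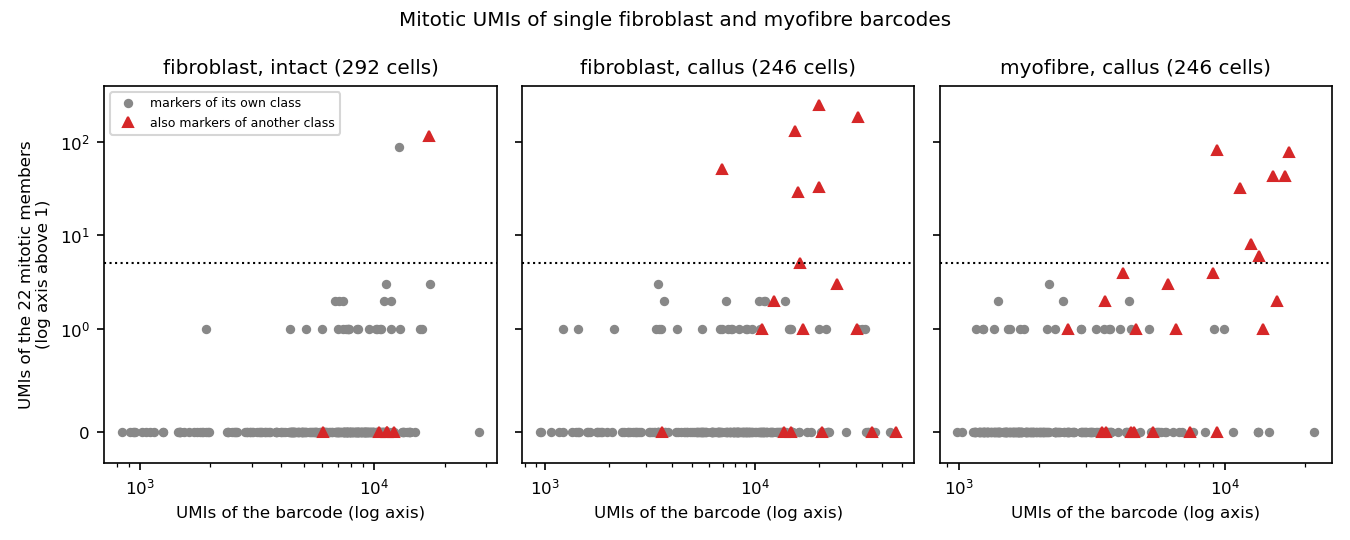
Mitotic UMIs of single fibroblast and myofibre barcodes (y axis, log above 1) against all UMIs of the barcode (x axis, log), with red triangles for mixed barcodes, grey circles for the others and a dotted line at 5 mitotic UMIs. Of the points at or above the line, all but 1 intact fibroblast with 89 mitotic UMIs are mixed barcodes.

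Other cell cycle genes outside the module were counted in the same comparisons. The shares of all genes at least 2-fold higher in callus were those given above, 27.4% in immature neutrophils, 10.7% in monocytes and 12.1% in pro-B or large pre-B cells. Of other replication genes, 23 of 23 measured were at least 2-fold higher in callus immature neutrophils, 3 of 23 in monocytes and 5 of 24 in pro-B or large pre-B cells, and of other mitosis genes 22 of 26, 20 of 26 and 9 of 26. In monocytes the replication genes were thus near the share of all genes and the mitosis genes well above it. Of 10 histone genes, some replication-dependent and some variant, 2 were higher in immature neutrophils, 3 in monocytes and 0 in pro-B or large pre-B cells, where 3 were lower. The share of all genes at least 2-fold lower was not counted in pro-B or large pre-B cells, so those 3 cannot be set against it. Hist1h2ap stood at 5343 CPM in intact and 1554 CPM in callus pro-B or large pre-B cells and Hist1h2ae at 2209 and 870 CPM. Histone genes have near-identical copies and mostly lack poly(A) tails, so these counts are uncertain.

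The D cyclins, which respond to growth signals, and the inhibitors of cyclin-dependent kinases were found both in member-rich types and in fibroblasts and endothelial cells. Ccnd3 was at 354 and 409 CPM in intact and callus pro-B or large pre-B cells and at 207 and 275 CPM in immature neutrophils, while Ccnd2 was at 190 and 116 CPM in fibroblasts and Ccnd1 at 219 CPM in callus endothelial cells. Among inhibitors, Cdkn1a (p21) was at 255 and 292 CPM in fibroblasts, 483 and 422 CPM in monocytes and 42.1 CPM in callus GMPs. Cdkn1c (p57) was at 522 and 204 CPM in endothelial cells and 154 and 193 CPM in fibroblasts. Cdkn1b (p27) was at 360 and 176 CPM in pro-B or large pre-B cells and 431 and 233 CPM in pre-B or immature B cells, lower in the callus where the members were higher. At least 2-fold higher in callus immature neutrophils were 3 of 4 measured D cyclin and kinase genes, 1 of 4 inhibitors and 8 of 15 regulators of the RB, E2F and DREAM group. In monocytes these counts were 2 of 5, 1 of 4 and 7 of 15, and in pro-B or large pre-B cells 2 of 4, 0 of 4 and 3 of 15. With so few genes a list, counts such as 1 of 4 cannot be told from the share of all genes given above. E2f2, an activating E2F, stood at 302 CPM and E2f8, a repressing one, at 159 CPM in callus erythroid precursors.

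Among 10481 genes outside the cell cycle lists, those whose log2(CPM + 10) over the 25 groups followed the S-phase list most closely were Dek (Pearson r = 0.959), Hpf1 (0.955), Ncapd3 (0.955), Anp32b (0.9499) and Nsd2 (0.949). For the mitotic list they were Knl1 (0.962), Kif15 (0.952), Ncapd3 (0.948), Tacc3 (0.947) and Asf1b (0.946). Knl1 and Tacc3 act at the kinetochore and spindle, Kif15 is a spindle motor, Ncapd3 is a condensin subunit and Asf1b a histone chaperone. The groups share 2 libraries and differ in depth, so these values are descriptions over 25 points.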

How the data were processed

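Single cells of 1 intact and 1 callus library were analysed. Per the labels and methods, the authors aligned 10x 3′ V3 reads to mm10 with Cell Ranger 6.0.0, and the deposited matrices hold whole-number UMI counts per gene and barcode, neither normalized nor corrected. Barcodes under 500 genes or over 10% mitochondrial UMIs were dropped (665 intact and 692 callus), leaving 7518795 and 34287541 UMIs.

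Each cell took the marker list with the highest mean ln(1 + UMIs per 10000) if it carried 3 of its markers and led every list of another class by 1.25 times. B-lineage stages came from 2 UMIs of early or 15 UMIs per 10000 of mature markers. CPM, thinning and ratios were computed with Python 3.11.15, numpy 2.4.6, scipy 1.17.1 and pandas 2.3.3, figures with matplotlib 3.10.9, and clusters and doublet scores for alternatives with scanpy 1.11.5 and igraph 0.11.9. Doublets were not removed for the main values. A ratio needed 20 UMIs over both groups, and a group at 0 was set to 3 UMIs. With 1 library per condition there was no test. Recovery of known fold changes and of thinned shares was tested on simulated data.

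The 40 members and the other lists were chosen with earlier results of these data known, gate settings were set after the cells were seen, and the alternatives on mixed barcodes and early B markers were added after seeing the data. In each role the members with most and fewest UMIs were named, besides Mki67, Top2a, Pcna and Mcm5, with genes of other lists past 2-fold and the 5 closest followers of each list. Members named outside this rule were chosen after their values were seen. The alternatives are listed with their effects in the closing section, those on S-phase levels and shares mostly as counts only.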

Additional observations from a re-analysis of the deposited data

Results flagged for a closer look

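Barcodes that the filters removed, or that took no cell type, carried some members above the level of the mature neutrophils of their library. In the 658 intact barcodes under 500 genes Ube2c stood at 109 CPM (500 UMIs), against 4.06 CPM in mature neutrophils, and Nusap1 at 53.7 CPM (246 UMIs), against 0. In the 622 such callus barcodes Ube2c stood at 148 CPM (325 UMIs), against 12.9 CPM, and Nusap1 at 67.2 CPM (147 UMIs), against 11.3 CPM. Globin genes held 94.1% of the UMIs of these intact barcodes and 81.6% of the callus ones. In the intact ones Ube2c and Nusap1 held 746 of the 807 mitotic UMIs, beside 13 of Mki67 and 10 of Top2a, and 26 S-phase UMIs were counted. In the callus ones Mki67 held 102 of 714 mitotic UMIs and 150 S-phase UMIs were counted. The summed S-phase level of these barcodes, 5.67 CPM intact and 68.5 CPM callus, was below that of mature neutrophils (52.8 and 149 CPM). Their summed mitotic level was above it in the intact library (176 against 81.2 CPM) and not in the callus (326 against 377 CPM).

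Barcodes over 10% mitochondrial UMIs had 911 CPM of mitotic and 911 CPM of S-phase UMIs in the intact library (9 UMIs of each in 7 barcodes, against 81.2 and 52.8 CPM in mature neutrophils), and 2028 and 1407 CPM in 70 callus barcodes. Kept barcodes of no type had 254 CPM of S-phase UMIs in the intact library (38 UMIs in 23 barcodes) and 1153 CPM of S-phase and 2482 CPM of mitotic UMIs in 93 callus barcodes. The mitotic level of the intact ones, 53.6 CPM (8 UMIs), was not above that of mature neutrophils. The cause of these values was not tested.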

How the results depend on the processing

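Counts of members past 2-fold gave 93 of 112 alternative values within 1.5 times the main count. For the mitotic list in the groups named below, summed levels gave 35 of 65 and thinned shares 56 of 83 within counting error. For the S-phase list, and the mitotic list in the remaining groups examined, these were 54 of 93 and 82 of 119. The order of the libraries for the fibroblast mitotic level turned without mixed barcodes (19.5 CPM callus, 62.3 CPM intact), as did that for their S-phase level (179 CPM callus, 197 CPM intact).

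Share of cells with at least 2 mitotic members. Thinned to 1000 UMIs it was 39.1% in callus pro-B or large pre-B cells, 33.6% in callus immature neutrophils, 51.3% in callus GMPs, 69.4% in callus erythroid precursors and 20.4% in callus monocytes. Thinned to 4000 UMIs it was 77.1% in callus and 50% in intact pro-B or large pre-B cells, 45.2% in callus immature neutrophils and 86.0% in callus GMPs. With at least 1 member it was 65.7% and 40.3% in callus and intact pro-B or large pre-B cells, 49.4% and 16.9% in immature neutrophils, 39.9% and 34.0% in monocytes, and in callus 87.6% in GMPs, 94.7% in erythroid precursors and 7.52% in fibroblasts. With at least 3 members it was 35.5% in immature neutrophils, 54.9% in GMPs and 20.8% in monocytes of the callus. Callus erythroid precursors gave 97.1% under a stricter cell filter (1000 genes, 5% mitochondrial) and 57.3% under a looser one (200 genes, 20%). The looser value lies below the 71.1% of callus GMPs under the main filter. Clusters gave 54.2% in callus pro-B or large pre-B cells and 19.8% in callus monocytes. Callus fibroblasts gave 0 without the highest doublet scores and without mixed barcodes.

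Mitotic CPM. By clusters it was, in callus, 5467 in pro-B or large pre-B cells, 3084 in immature neutrophils, 2946 in GMPs, 8271 in erythroid precursors, 2133 in monocytes and 360 in fibroblasts, and 743 in intact monocytes. By the mean of the cells' CPM it was 3745 and 881 in callus and intact pro-B or large pre-B cells, 2076 and 552 in immature neutrophils, 1514 and 677 in monocytes, 2587 in callus GMPs and 187 in callus fibroblasts. Without the 3 cells with most UMIs of the list it was 5352 and 1135, 3074 and 748, and 2292 and 333 in the same 3 pairs, 2791 in callus GMPs, 8452 in callus erythroid precursors and 69.8 in callus fibroblasts. With early B markers per 10000 UMIs it was 5395 and 2383 in callus and intact pro-B or large pre-B cells. Callus erythroid precursors had 11374 with the stricter and 5922 with the looser cell filter, and callus fibroblasts 21.3 without the highest doublet scores and 19.5 without mixed barcodes.

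Members at least 2-fold higher. In callus over intact monocytes, S-phase counts were 5 by clusters, 6 without mixed barcodes and 5 by the mean of the cells' CPM. In pro-B or large pre-B cells they were 4 with early B markers per 10000 and 14 by the mean of cells, with 22 mitotic members by that mean. In pre-B or immature B cells they were 10 by clusters, 4 at 10 UMIs, 1 at 50 UMIs and 4 by the mean of cells, with 14 mitotic members by clusters. In fibroblasts they were 6 by clusters, 0 at 50 UMIs and 0 without mixed barcodes, with 0 mitotic members without mixed barcodes, where few mitotic members could be measured. In callus pro-B or large pre-B over pre-B or immature B cells, clusters gave 2 S-phase and 2 mitotic members and early B markers per 10000 gave 6 and 1. The share of all genes past 2-fold was counted under the main setting only, so none stands beside these counts.

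No paired analysis was possible because each condition has 1 library and no result comes from a test. Leaving out a replicate was likewise not possible. Depth limits the quiet types most, where a summed level rests on few UMIs, and pooling leaves the spread between mice unmeasured.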

Other observations

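Lymphoid cells outside the B lineage, and the rarer progenitors, carried the members unevenly between libraries. In callus T cells (88 cells) the S-phase level was 871 CPM (795–953) and the mitotic level 2384 CPM (2256–2516), and in 27 intact T cells 682 CPM (550–836) and 829 CPM (683–996). NK cells had 603 CPM (535–677) of S-phase and 1191 CPM (1096–1293) of mitotic UMIs in 87 callus cells, and 480 CPM and 128 CPM (55.2–252) in 13 intact cells. Plasmacytoid dendritic cells of the callus (40 cells) had 796 CPM (701–901) and 1908 CPM (1758–2067), and 9 intact ones 1092 CPM (848–1385) and 273 CPM (159–437). In 16 early haematopoietic progenitors of the intact library the levels were 1489 CPM (1312–1683) of S-phase and 378 CPM (292–482) of mitotic UMIs. In each of these types the summed mitotic level was higher in callus, while the S-phase level of plasmacytoid dendritic cells was not. The S-phase intervals of T, NK and plasmacytoid dendritic cells overlapped between the libraries. Thinned, at least 2 mitotic members were carried by 1 of 25 intact and 12 of 87 callus T cells and 0 of 13 and 4 of 84 NK cells. The shares were 1 of 9 and 5 of 40 in plasmacytoid dendritic cells and 2 of 16 and 14 of 33 in early haematopoietic progenitors. In each type these share intervals overlapped. The intact groups are small, and none of these differences could be tested.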
